A study of Mus musculus with 32 samples.

Results

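Regulatory T cells (Treg) of the liver were compared with Treg of the spleen in mice given carbon tetrachloride (CCl4), a hepatotoxin used to bring on liver injury and fibrosis. The comparison took every liver Treg library and every spleen Treg library with the CCl4 label, 5 of each, so 10 of the 32 libraries of the series. All came from male C57BL/6 mice of the genotype Foxp3GFP, in which green fluorescent protein marks cells that express Foxp3. Cells were sorted from both organs as TCRb+CD4+Foxp3+ and their RNA was sequenced after full-length cDNA amplification. The other 22 libraries are Tconv of both organs after CCl4, that is, conventional T cells sorted as TCRb+CD4+Foxp3-, 5 of each, and Treg and Tconv of both organs of control mice, 3 of each. The labels give neither the dose and duration of CCl4 nor the age of the mice. They also do not say that libraries of a group came from separate animals, so p-values measure the spread between these samples, which may be technical.

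Treg restrain immune responses under the direction of the transcription factor Foxp3. Those that circulate through spleen and lymph nodes keep a naive or central programme, with receptors for lymphoid homing and the transcription factors TCF1 and BACH2. Treg that settle in organs such as fat, skin, muscle and liver take on an effector programme in which the alarmin receptor ST2, the factors GATA3, PPARgamma and RORalpha, and the tissue growth factor amphiregulin are known parts. Amphiregulin, the product of Areg, is a ligand of the epidermal growth factor receptor and is named in the title of the series.

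The defining genes of the sort were checked first. Foxp3 stood at 956, 1088, 1047, 1064 and 1092 counts-per-million (CPM) in liver Treg libraries 1 to 5, against 1028, 973, 1042, 1164 and 1098 CPM in spleen Treg libraries 1 to 5. The ranges of both groups overlap. In the Tconv libraries after CCl4, Foxp3 averaged 0.976 ± 0.245 CPM in liver and 1.81 ± 0.408 CPM in spleen (mean ± SD, n = 5 each, as everywhere below unless stated). Cd4 averaged 592 ± 22.3 CPM in liver Treg and 656 ± 27.3 CPM in spleen Treg, and the T cell receptor subunit gene Cd3e 661 ± 31.4 and 881 ± 73.9 CPM. Cd8a, the marker of cytotoxic T cells, lay under 1 CPM on average in both, at 0.536 ± 0.151 and 0.772 ± 0.431 CPM. The other CD8 chain gene, Cd8b1, was detected in every library. It averaged 18.8 ± 1.71 CPM in liver Treg and 17.8 ± 2.78 CPM in spleen Treg. CPM are normalised by the trimmed mean of M values over the whole series, and compare 1 gene between libraries. TPM (transcripts-per-million), which divide by length, are used between genes. In bulk libraries, fewer cells of a type and less RNA per cell cannot be told apart. Whether counting used strand is not given in the sources used here, so reads of overlapping antisense genes may be mixed.

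Tissue was the main axis among the 10 libraries, with 70.5% of the variance of log2 CPM on the first principal component and 5.49% on the second. The liver libraries scored from -44.87 to -38.49 on the first and the spleen libraries from 41.17 to 43.12. Of 14363 genes tested, 8647 (60.2%) were called at an adjusted p under 0.05, 4195 (29.2%) higher and 4452 (31.0%) lower in liver Treg. With such a background, a called gene is the rule rather than the exception, and counts over gene lists are read against these shares. Changes past 2-fold were less even, with 2099 genes (14.6%) higher and 808 (5.63%) lower in liver Treg, 2907 (20.2%) in all. The libraries of both tissues did not overlap at 6511 genes (45.3%). The median log2 fold change over all genes tested was 0.00.

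**Figure D1:**
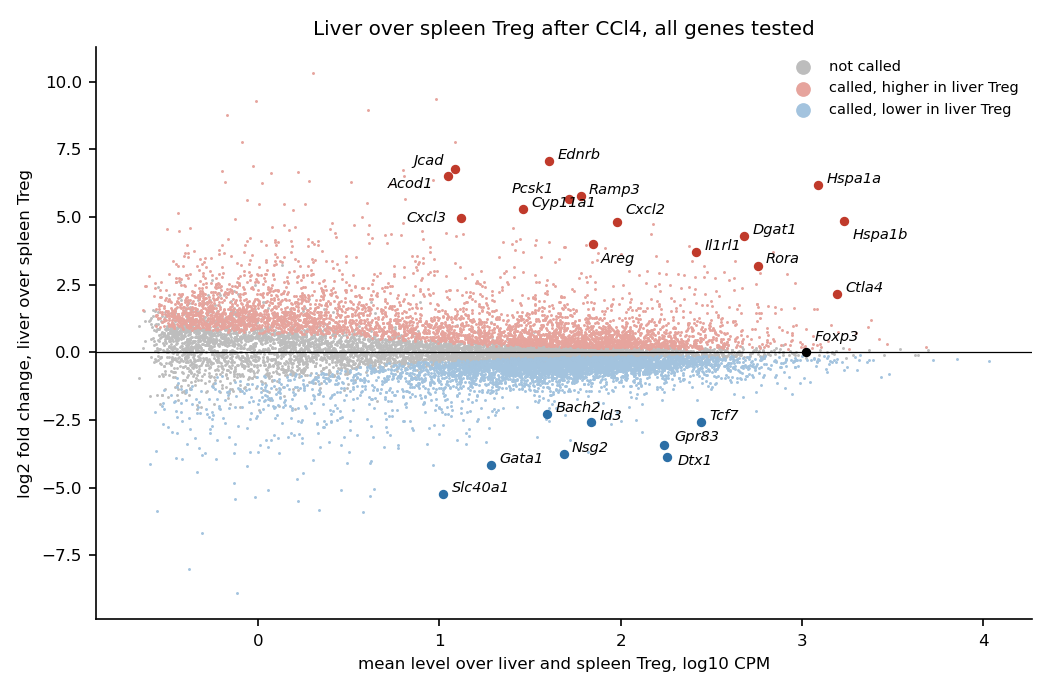
Log2 fold change of liver over spleen Treg after CCl4 (y axis) against the mean level over both groups in log10 CPM (x axis) for the 14363 genes tested, with called genes coloured. Foxp3 sits at 0.02, Hspa1a at 6.19 and Areg at 3.99 above it, and Dtx1 at -3.85 and Tcf7 at -2.59 below it.

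Areg lies on chromosome 5 of the mouse genome build GRCm38, at 91139599 to 91148432 on the plus strand. The 250 bases before its start, chr5:91139349-91139598 on the plus strand (RefSeq, GRCm38.p6), are shown because Areg carries the title of the series and the region holds a cyclic AMP response element, the palindrome TGACGTCA, given in capitals.
Areg promoter: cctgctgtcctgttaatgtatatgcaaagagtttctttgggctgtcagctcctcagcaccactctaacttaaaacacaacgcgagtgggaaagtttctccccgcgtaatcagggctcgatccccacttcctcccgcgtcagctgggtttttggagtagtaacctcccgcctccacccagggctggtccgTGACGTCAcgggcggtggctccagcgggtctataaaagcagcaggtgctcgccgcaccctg
The element begins 61 bases before the start and occurs 1 time in the 300 bases searched on both strands, which run to 50 bases past the start. It occurs in 1.79% of 32851 such RefSeq windows. Of the 356 tested genes with the element, 30.6% were called higher and 30.1% lower in liver Treg, against 27.6% and 33.6% of 10210 tested genes without it. These shares lie near the background over all genes tested. The motif was chosen after the values had been seen.

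Areg was expressed far more strongly in liver Treg than in spleen Treg. Its levels were 101, 125, 134, 170 and 130 CPM in liver Treg libraries 1 to 5, against 7.47, 7.99, 10.3, 8.96 and 7.55 CPM in spleen Treg. The lowest liver library thus lay well above the highest spleen library. The difference was 15.9-fold (log2 fold change 3.99, standard error (SE) 0.14, adjusted p = 1.59e-10). On the length-corrected scale Areg averaged 204 TPM in liver Treg and 12.6 TPM in spleen Treg. For comparison, Ctla4, among the most abundant Treg receptor transcripts, averaged 2301 and 525 TPM.

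Areg belonged to a list of 20 genes of tissue Treg and repair, of which 19 were called higher in liver Treg, none lower and 1, Itgae, was not called (background 29.2% higher). Their median log2 fold change was 2.79. The list was drawn up with earlier results of these data known, so its direction is a description. Il1rl1, which encodes the IL-33 receptor ST2, had 256, 674, 528, 477 and 494 CPM in liver Treg, against 40.3, 45.1, 37.1, 32.7 and 37.4 CPM in spleen Treg (log2 fold change 3.69, SE 0.21, adjusted p = 1.08e-08). Liver library 1 was the lowest of the liver values and still lay above every spleen library. Pparg, the nuclear receptor that directs the Treg of fat tissue, had 65.0, 84.9, 113, 102 and 96.7 CPM in liver, against 3.40, 9.06, 5.42, 7.39 and 7.01 CPM in spleen (3.89, SE 0.23, adjusted p = 1.94e-08). Rora, encoding the nuclear receptor RORalpha, averaged 1025 ± 192 CPM in liver Treg and 114 ± 11.6 CPM in spleen Treg (3.21, SE 0.13, adjusted p = 5.71e-10). Gata3, the factor of type 2 helper cells and of barrier Treg, differed less, with 864 ± 144 CPM in liver Treg and 280 ± 8.55 CPM in spleen Treg (1.66, SE 0.10, adjusted p = 2.21e-08). Klrg1, a marker of terminally differentiated effector cells, averaged 558 ± 77.1 and 137 ± 21.8 CPM (2.06). For each of these genes every liver library lay above every spleen library.

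The list also held genes with small differences. Batf, a factor needed for tissue Treg development, averaged 176 ± 10.9 CPM in liver Treg and 151 ± 20.7 CPM in spleen Treg (log2 fold change 0.26, SE 0.09, adjusted p = 0.0181). Its libraries overlapped, and the call was lost without spleen library 1 (adjusted p = 0.0585), 2 (0.0538) or 3 (0.0607). Penk, which encodes the opioid precursor proenkephalin, had 126, 146, 158, 287 and 225 CPM in liver, against 71.4, 76.7, 80.5, 143 and 91.1 CPM in spleen (1.06, SE 0.23, adjusted p = 0.00153). Library 4 was the highest of each group for Penk, and the groups overlapped.

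**Figure D2:**
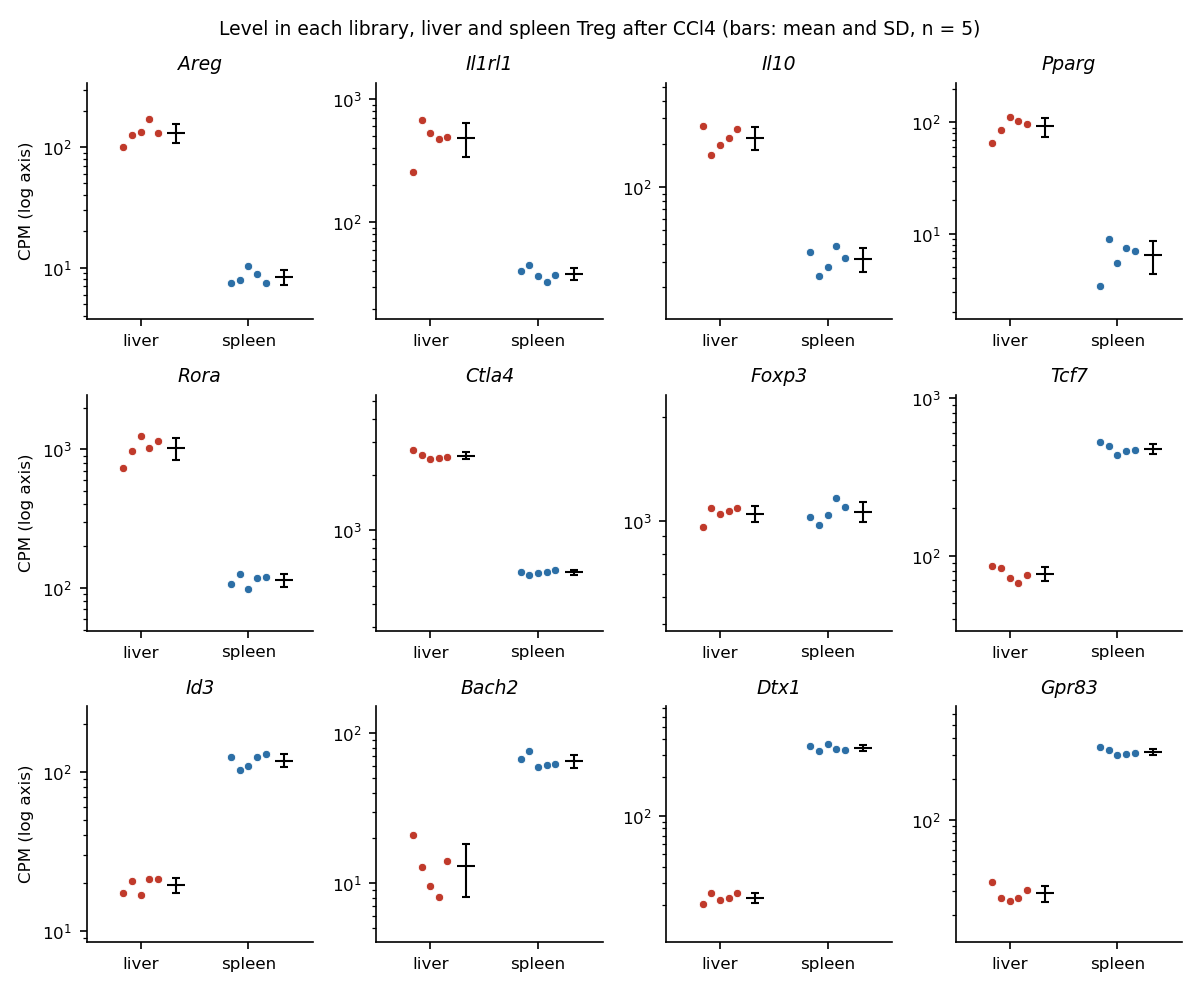
Level of 12 genes in each library in CPM on log axes, liver Treg left and spleen Treg right, with points for libraries and bars for mean and SD (n = 5). Areg, Il1rl1, Il10, Pparg, Rora and Ctla4 are higher in all liver libraries, Tcf7, Id3, Bach2, Dtx1 and Gpr83 lower, and Foxp3 overlaps.

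Of 16 genes of Treg identity, 10 were called higher, 3 lower and 3 were not called (background 29.2% higher, 31.0% lower). Their median log2 fold change was 0.34. Foxp3 itself was not called (0.02, SE 0.06, adjusted p = 0.786), and its sign and call depended on the scaling, as given in the closing section. Ctla4, which strips costimulatory ligands from antigen-presenting cells, had 2715, 2547, 2444, 2474 and 2507 CPM in liver Treg, against 593, 572, 587, 594 and 614 CPM in spleen Treg (2.13, SE 0.04, adjusted p = 1.14e-12). Ikzf2, encoding the Treg-stabilising factor Helios, averaged 846 ± 42.8 and 315 ± 24.4 CPM (1.46). Itgb8, whose integrin activates latent transforming growth factor beta, averaged 107 ± 15.5 and 30.2 ± 5.84 CPM (1.87). The 3 genes on the other side were Gpr83, Izumo1r and Nrp1. Gpr83, an orphan receptor gene characteristic of Treg, had 35.0, 26.8, 25.2, 26.5 and 30.5 CPM in liver, against 342, 323, 301, 305 and 309 CPM in spleen (-3.42, SE 0.09, adjusted p = 1.36e-11). Izumo1r, which encodes the folate receptor FR4, averaged 226 ± 19.0 CPM in liver Treg and 718 ± 61.1 CPM in spleen Treg (-1.64). Nrp1, a semaphorin receptor gene of thymus-derived Treg, averaged 319 ± 36.9 and 385 ± 10.5 CPM (-0.24), with overlapping libraries. Its call was lost in a fit of all 8 groups (adjusted p = 0.0886) and among genes of at least 5 CPM (-0.111, adjusted p = 0.188). Treg genes thus lay on both sides.

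Genes of the naive and recirculating state went mostly the other way, with 13 of 18 called lower in liver Treg, 4 higher and 1 not called (background 31.0% lower), and a median log2 fold change of -1.14. Tcf7, which encodes TCF1, had 86.0, 84.0, 72.1, 67.0 and 75.9 CPM in liver Treg, against 524, 493, 437, 457 and 470 CPM in spleen Treg (-2.59, SE 0.08, adjusted p = 4.23e-11). The groups were far apart. Bach2, a repressor of effector differentiation, had 21.0, 12.9, 9.52, 8.06 and 14.1 CPM in liver, against 67.1, 75.8, 59.7, 61.3 and 62.1 CPM in spleen (-2.28, SE 0.21, adjusted p = 9.84e-07). Lef1, the partner of TCF1, differed by -0.62 and the chromatin organiser gene Satb1 by -1.35. The surface protein gene Ly6c1 (-3.67) and Igfbp4 (-3.25), which encodes a binding protein of insulin-like growth factors, showed still larger falls.

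Not all recirculation genes followed. Klf2, the factor that drives expression of lymphoid exit and homing receptors, was higher in liver Treg, at 413 ± 36.7 CPM against 342 ± 38.9 CPM in spleen Treg (log2 fold change 0.31, SE 0.09, adjusted p = 0.00785). Ccr7, the receptor for lymph node chemokines, had 332, 358, 489, 346 and 493 CPM in liver, against 391, 315, 293, 236 and 306 CPM in spleen (0.42, SE 0.14, adjusted p = 0.019), with overlap between the groups. Its call was lost without spleen library 4 (adjusted p = 0.0528). S1pr1, whose receptor lets T cells leave lymphoid organs, was not called (-0.12, SE 0.10, adjusted p = 0.317), at 351 ± 61.8 and 392 ± 26.1 CPM. Il7r, the receptor of a survival cytokine and usually low in Treg, was higher in liver Treg, at 486 ± 99.1 CPM against 202 ± 23.1 CPM in spleen Treg (1.30, SE 0.13, adjusted p = 1.78e-06).

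Effector transcription factors were mostly higher in liver Treg, with 22 of 24 called higher and 2 lower (background 29.2% higher). Their median log2 fold change was 1.23. This list too was drawn up with earlier results of these data known. It shares members with the list of tissue Treg and repair, among them Gata3, Rora, Pparg, Id2 and Batf, so the 2 counts are not separate results. The inhibitor of differentiation pair moved in opposite directions. Id2 had 822, 1034, 1059, 1058 and 1203 CPM in liver Treg, against 123, 143, 136, 143 and 150 CPM in spleen Treg (2.93, SE 0.09, adjusted p = 6.03e-11). Id3 had 17.4, 20.5, 16.9, 21.3 and 21.1 CPM in liver, against 124, 103, 109, 124 and 130 CPM in spleen (-2.57, SE 0.09, adjusted p = 2.19e-10). On the length-corrected scale Id2 stood at 1578 TPM and Id3 at 30 TPM in liver Treg, against 207 and 169 TPM in spleen Treg. Bhlhe40, a repressor induced by activation, averaged 942 ± 133 CPM in liver Treg and 168 ± 23.6 CPM in spleen Treg (2.52). The effector factors Irf4 (1.28) and Prdm1, which encodes BLIMP1 (1.14), and the NF-kB subunit gene Rel (2.34) were higher too. Myb (-0.57) and Relb (-0.28) were the 2 lower members.

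Among 24 suppressive and repair mediators, 16 were called higher, 3 lower and 5 were not called (background 29.2% higher). The list of tissue Treg and repair also holds Areg, Il10 and Penk. Il10, the anti-inflammatory cytokine, had 265, 166, 197, 221 and 253 CPM in liver Treg, against 35.3, 23.9, 27.5, 38.7 and 32.2 CPM in spleen Treg (log2 fold change 2.84, SE 0.15, adjusted p = 5.77e-09). Fgl2, a fibrinogen-like suppressive protein, averaged 528 ± 37.8 and 69.5 ± 9.48 CPM (2.96), and the protease gene Gzmb 234 ± 40.2 and 40.8 ± 6.22 CPM (2.55). All 3 were apart between the tissues. The lower members were Tgfb1 (-0.23), the pore-forming Prf1 (-0.89) and Osm (-0.80).

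Cytokine receptors were divided, with 15 of 35 called higher, 12 lower and 8 not called (background 29.2% higher, 31.0% lower). Their median log2 fold change was 0.09. The list also holds Csf1, which is a ligand (-2.01; 10.6 ± 3.02 CPM in liver and 43.3 ± 3.15 CPM in spleen Treg). Besides Il1rl1, the IL-18 receptor chain gene Il18rap (1.97) and the interferon gamma receptor gene Ifngr1 (1.58; 1739 ± 57.6 against 596 ± 47.3 CPM) were higher in liver Treg. The IL-6 receptor gene Il6ra (-1.25; 65.5 ± 5.83 against 159 ± 10 CPM) and Il27ra (-0.98) were lower.

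The mixture of Il1rl1 transcripts also differed. Il1rl1-201, whose coding sequence of 567 codons is that of the membrane receptor, held 67.8% ± 6.6 of the gene's estimated counts in liver Treg and 83.9% ± 3.8 in spleen Treg (two-sided exact permutation test over the 10 libraries, p = 0.00794, the smallest it can give; adjusted p = 0.0251 over 19 transcripts). Il1rl1-203, with 337 codons as in the soluble decoy form, held 14.5% ± 2.59 and 5.26% ± 2.72 (adjusted p = 0.0251). Il1rl1-205, also of 337 codons, was not called (14.5% ± 3.28 and 9.78% ± 2.18; adjusted p = 0.0603). Summed, a choice made after the shares were seen, the transcripts of 337 codons held 36.0, 23.4, 32.6, 23.9 and 28.8% of the counts in liver Treg, against 13.2, 14.7, 10.8, 17.1 and 19.4% in spleen Treg. The groups were apart. By TPM the same transcripts made up 55.8% ± 5.76 in liver Treg and 41.0% ± 5.65 in spleen Treg, so the level of the soluble form depends on the scale while its direction does not. In absolute terms both forms were higher in liver Treg, the membrane form at 108 ± 37.3 TPM against 9.73 ± 1.33 TPM in spleen Treg.

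Ptprc, which encodes the phosphatase CD45, differed in the same kind of measure. Ptprc-203, of 1154 codons, held 56.3% ± 0.802 of the gene in liver Treg and 70.4% ± 1.51 in spleen Treg, and Ptprc-204, of 1130 codons, 28.6% ± 1.36 and 21.3% ± 1.11 (adjusted p = 0.0251 for both, exact permutation test). The shorter transcript thus held a larger share in liver Treg than in spleen Treg, while the longer held the larger share of the pair in both. Of the adhesion receptor gene Cd44, the longest transcript tested, Cd44-201 of 780 codons, held 16.3% ± 1.48 in liver Treg and 5.80% ± 1.40 in spleen Treg (adjusted p = 0.0251). Cd44-203, the main transcript of 365 codons, held 66.5% ± 2.74 and 72.0% ± 2.15 (adjusted p = 0.0377), and Cd44-207, of 577 codons, 13% ± 2.52 and 20.3% ± 1.83 (adjusted p = 0.0251). In all, 8 of 19 transcripts of 8 genes were called. Leaving out 1 library gave 6 to 10 called transcripts, except that without spleen library 3 the exact test called 0, with the smallest adjusted p at 0.0503. Kallisto divides reads among transcripts that share most of their bases, so these shares are estimates.

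**Figure D3:**
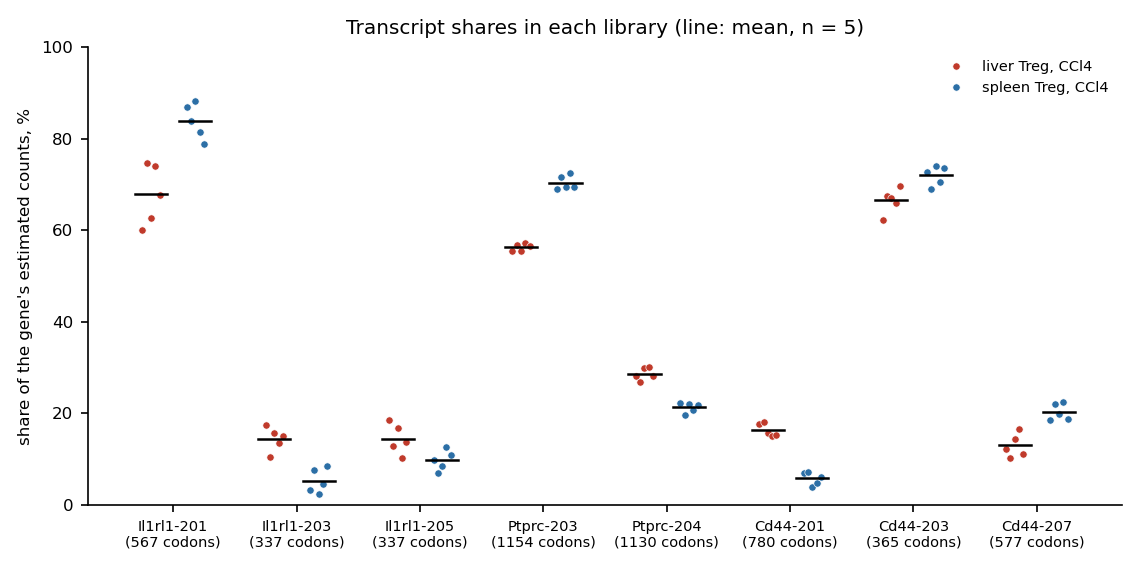
Share of the gene's estimated counts held by transcripts of Il1rl1, Ptprc and Cd44 (y axis, percent) in each library, liver Treg left of spleen Treg, with lines at the means (n = 5). Il1rl1-201 and Ptprc-203 are lower in liver Treg, at 67.8% and 56.3%, and Il1rl1-203, Ptprc-204 and Cd44-201 are higher.

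Chemokine receptors were mostly higher in liver Treg, with 17 of 24 called higher, 2 lower and 5 not called (background 29.2% higher). Their median log2 fold change was 1.27. Cxcr6, a receptor of liver-resident lymphocytes, had 75.3, 123, 116, 132 and 157 CPM in liver Treg, against 6.50, 10.6, 6.21, 8.48 and 8 CPM in spleen Treg (3.97, SE 0.20, adjusted p = 3.98e-09). Ccr8, a receptor of activated and tissue Treg, averaged 735 ± 118 and 113 ± 23.3 CPM (2.74), and the inflammatory receptor gene Ccr2 553 ± 43.4 and 118 ± 11.1 CPM (2.26). The leukotriene receptor gene Ltb4r1 averaged 112 ± 19.5 and 16.7 ± 1.79 CPM (2.77). Cxcr3, the receptor of type 1 inflammation, differed little, with 282, 241, 167, 246 and 238 CPM in liver, against 169, 167, 187, 236 and 165 CPM in spleen (0.38, SE 0.13, adjusted p = 0.0209). Its groups overlapped, and the call was lost in 4 of the 10 fits that leave out 1 library, those without liver library 1 (adjusted p = 0.0554) or spleen library 1 (0.0579), 2 (0.0603) or 5 (0.0611). The lower members were Cxcr5, the receptor for B cell follicles, at 19.3 ± 3.92 CPM in liver and 124 ± 28.6 CPM in spleen (-2.66), and S1pr4 (-0.43).

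Integrins and adhesion receptors were balanced at 10 higher, 11 lower and 3 not called of 24 (background 29.2% higher, 31.0% lower). Itgav, the alpha chain that pairs with the product of Itgb8, averaged 659 ± 123 CPM in liver Treg and 86.5 ± 4.64 CPM in spleen Treg (log2 fold change 2.96, SE 0.12, adjusted p = 4.95e-10). Cd44 averaged 436 ± 57.9 and 163 ± 10.6 CPM (1.45). Itga6, a laminin receptor chain, was lower in liver Treg, at 156 ± 9.32 against 287 ± 20.4 CPM (-0.85).

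Of 22 cytokine and chemokine genes, 13 were called higher, 6 lower and 3 were not called (background 29.2% higher, 31.0% lower). Cxcl2, a chemokine that draws neutrophils, had 123, 197, 261, 147 and 191 CPM in liver Treg, against 4.70, 6.77, 7.67, 5.63 and 9.37 CPM in spleen Treg (log2 fold change 4.80, SE 0.23, adjusted p = 2.83e-09). Its relative Cxcl3 had 13.8, 26.4, 35.9, 22.6 and 28.3 CPM in liver, against 0.486, 0.313, 1.2, 1.17 and 0.892 CPM in spleen (4.98). Both lie on chromosome 5 near Areg, Cxcl3 at 90786103 to 90789600 and Cxcl2 at 90903871 to 90905938. Il5, the eosinophil cytokine, had 3.67, 22.7, 22.2, 23.8 and 23.4 CPM in liver Treg and was at 0, 0.125, 0.0184, 0 and 0.0319 CPM in spleen Treg, too low there for a reliable fold change. Liver library 1, the lowest for Il5, was also the lowest for Il1rl1, Gata3, Pparg and Areg. Lymphotoxins went the other way. Ltb averaged 438 ± 25.1 CPM in liver Treg and 1322 ± 73.2 CPM in spleen Treg (-1.56), and Lta 6.95 ± 1.45 and 62.3 ± 7.88 CPM (-3.13, SE 0.15, adjusted p = 1.85e-09).

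Of 30 coinhibitory and costimulatory receptors and ligands, 18 were called higher, 10 lower and 2 were not called (background 29.2% higher, 31.0% lower). Icos, a costimulator of effector Treg, had 1397, 1375, 1444, 1285 and 1348 CPM in liver Treg, against 420, 410, 430, 545 and 426 CPM in spleen Treg (log2 fold change 1.65, SE 0.08, adjusted p = 1.55e-09). Havcr2, which encodes TIM-3, averaged 48.6 ± 9.56 and 3.59 ± 0.840 CPM (3.78). Cd96, an inhibitory receptor for nectin-like ligands, was lower in liver Treg, at 75.9 ± 6.67 CPM against 262 ± 21.5 CPM in spleen Treg (-1.75), as were Vsir, encoding VISTA (-0.88), and Cd160 (-4.16), which stood at 0.940 ± 0.443 and 17.6 ± 2.37 CPM.

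Immediate early genes showed no common direction, with 11 of 26 called higher, 9 lower and 6 not called (background 29.2% higher, 31.0% lower). Their median log2 fold change was 0.01. Fosl2, an AP-1 subunit of lasting expression, had 243, 263, 298, 297 and 348 CPM in liver Treg, against 11, 11.3, 11.7, 11.3 and 10.3 CPM in spleen Treg (4.73, SE 0.10, adjusted p = 1.14e-12). The orphan nuclear receptor genes Nr4a2 (4.39; 279 ± 46.5 against 13.7 ± 1.96 CPM) and Nr4a3 (2.73; 102 ± 5.96 against 15.7 ± 3.10 CPM) were higher as well. On the other side stood Egr2, a factor of T cell receptor signalling, at 2.97 ± 1.09 CPM in liver Treg and 26.0 ± 10.5 CPM in spleen Treg (-3.09), Ier2 (-0.89) and the phosphatase gene Dusp2 (-0.94). Fos, chosen after its values were seen, averaged 507 ± 72.8 and 930 ± 121 CPM.

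Heat shock genes were mostly higher, with 14 of 20 called higher, 5 lower and 1 not called (background 29.2% higher, 31.0% lower). Hspa1a, the inducible HSP70, had 2121, 2655, 2436, 1958 and 2962 CPM in liver Treg, against 49, 30.8, 29.8, 8.90 and 52.4 CPM in spleen Treg (log2 fold change 6.19, SE 0.40, adjusted p = 3.72e-08). Its near-identical neighbour Hspa1b averaged 3308 ± 469 and 117 ± 68.8 CPM (4.86), and reads cannot be divided between the pair with certainty. Hsp90aa1 averaged 988 ± 113 and 307 ± 47.5 CPM (1.72). The 5 lower members are chaperones and disulfide isomerases of the endoplasmic reticulum, among them Hspa5 (-0.34), Calr (-0.51) and Pdia3 (-0.30). Not all chaperones of that compartment were lower. Hsp90b1 was called higher (0.48; 453 ± 22.3 against 333 ± 36.4 CPM) and Canx was not called (-0.10, adjusted p = 0.118). Hspa1a was also high in control liver Treg, at 2274 to 3456 CPM, and higher still in CCl4 liver Tconv, at 4946 to 8599 CPM. It lay between 7.82 and 121 CPM in every spleen library of control Treg and CCl4 Tconv. The organ and its preparation cannot be told apart in this design.

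NF-kB genes had 15 of 20 called higher, 3 lower and 2 not called. The background for both lists here is 29.2% higher and 31.0% lower. Rel averaged 430 ± 70.0 CPM in liver Treg and 86.9 ± 8.64 CPM in spleen Treg. Nfkb1 averaged 229 ± 13.9 and 100 ± 6.14 CPM (log2 fold change 1.23). Feedback genes of the ERK pathway were divided at 5 higher and 6 lower of 13. Within them the phosphatase genes Dusp10 (2.77; 504 ± 61.0 against 75.8 ± 11 CPM) and Dusp4 (2.74; 574 ± 108 against 87.8 ± 12.6 CPM) were higher in liver Treg, and Spred1 (-1.46) and Rasa3 (-0.61) lower.

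Interferon response genes were lower in liver Treg at 21 of 25 members, with 2 higher and 2 not called (background 31.0% lower). Their median log2 fold change was -0.70. Usp18, a negative regulator of interferon receptors that interferon itself induces, had 12.8, 16.9, 14.1, 23.9 and 13.5 CPM in liver, against 87.5, 87.1, 85.1, 75.9 and 77.4 CPM in spleen (-2.31, SE 0.15, adjusted p = 4.34e-08). The guanylate-binding protein gene Gbp2 (-1.14) and the nucleic acid sensor gene Zbp1 (-1.02) were lower as well. The 2 exceptions were the antiviral gene Rsad2, at 17.3 ± 5.38 CPM in liver Treg and 7.52 ± 2.46 CPM in spleen Treg (1.23, overlapping), and Gbp3 (0.27).

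Cell cycle genes had 21 of 26 called higher, 1 lower and 4 not called. The background for both lists here is 29.2% higher and 31.0% lower. Mki67, the proliferation marker, had 165, 158, 140, 111 and 149 CPM in liver Treg, against 38.3, 38, 41.1, 46.4 and 26.1 CPM in spleen Treg (log2 fold change 1.96, SE 0.14, adjusted p = 1.12e-07). Top2a averaged 114 ± 9.22 and 58.8 ± 3.29 CPM (0.99). Cdkn1a, an inhibitor of the cycle that the list also holds, was higher too, at 49.4 ± 6.49 against 12.5 ± 1.63 CPM (2.02), and Ccne1 was the 1 lower member (-0.46). Apoptosis and survival genes were divided evenly at 9 higher and 9 lower of 21. Bcl2, the survival factor of naive cells, averaged 33.3 ± 4.25 CPM in liver Treg and 157 ± 22.3 CPM in spleen Treg (-2.21), and its relative Mcl1 414 ± 26.1 and 802 ± 51.8 CPM (-0.92). Pmaip1, which encodes the pro-death protein NOXA, was higher, at 288 ± 17.5 against 38.4 ± 4.16 CPM (2.94). Survival and pro-death genes each lay on both sides. The survival genes Bcl2l1 (1.41) and Birc3 (1.15) were higher. Of pro-death genes, Tnfrsf10b (2.59) was higher too, and Fas (-0.72), Bid (-0.73) and Casp8 (-0.48) were lower.

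Of 28 genes of fatty acid handling, 12 were called higher, 7 lower and 9 were not called (background 29.2% higher, 31.0% lower). Their median log2 fold change was 0.18. Dgat1 and Dgat2, the enzymes of the last step of triglyceride synthesis, were both higher. Dgat1 had 836, 931, 1000, 857 and 933 CPM in liver Treg, against 51.1, 54.7, 47.0, 42.5 and 41.4 CPM in spleen Treg (log2 fold change 4.30, SE 0.09, adjusted p = 1.14e-12). Dgat2 had 98.1, 220, 217, 174 and 219 CPM in liver, against 15.0, 16.7, 13.4, 14.2 and 18.4 CPM in spleen (3.62). Plin2, the coat protein of lipid droplets, averaged 247 ± 24 and 31.9 ± 6.06 CPM (2.98). Fasn, the fatty acid synthase, was among the lower (-0.74; 97.4 ± 16.9 against 167 ± 15.7 CPM).

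Glycolysis and hypoxia genes had 16 of 23 called higher, 2 lower and 5 not called. The background for this list and those that follow here is 29.2% higher and 31.0% lower. The oxygen sensor gene Egln3 averaged 118 ± 19.0 CPM in liver Treg and 16.9 ± 3.20 CPM in spleen Treg (log2 fold change 2.83). The glucose transporter gene Slc2a1 averaged 169 ± 7.04 and 85.7 ± 6.47 CPM (1.02). Oxidative phosphorylation was the most one-sided list on the lower side, with 0 of 21 higher, 19 lower and 2 not called, but by small amounts, a median of -0.30. Cyc1, cytochrome c1, averaged 128 ± 5.12 CPM in liver Treg and 183 ± 5.61 CPM in spleen Treg (-0.48). In a fit restricted to genes of at least 5 CPM, 11 of the 21 were called lower. Cholesterol synthesis and transport was divided at 8 higher and 9 lower of 22, with Insig1, a brake on the pathway (1.17), higher, and Fdps (-0.66) and Sqle (-0.55) lower.

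Antioxidant genes were called higher at 10 of 21 and lower at 6. The background for this list and those that follow here is 29.2% higher and 31.0% lower. The metallothionein gene Mt1 averaged 52.4 ± 8.91 CPM in liver Treg and 2.95 ± 1.2 CPM in spleen Treg (log2 fold change 4.20). Hmox1, haem oxygenase 1, was lower, at 4.32 ± 0.987 against 19.3 ± 3.26 CPM (-2.12). Macrophage markers were mostly lower in liver libraries too, as given below, and the part of macrophage RNA in Hmox1 was not tested. S100, annexin and galectin genes had 13 of 18 called higher and 1, Lgals9, lower (-0.50), with S100a4 at 353 ± 29.4 and 154 ± 17.4 CPM (1.23). Clock genes had 10 of 17 called higher and 4 lower. Per1 averaged 90.0 ± 6.57 CPM in liver Treg and 18.3 ± 2.90 CPM in spleen Treg (2.34), whereas Per2 (-1.93) and the output gene Dbp, at 10.2 ± 0.591 and 21.1 ± 1.75 CPM (-1.02), were lower. The labels give no time of day for the 2 organs.

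**Figure D4:**
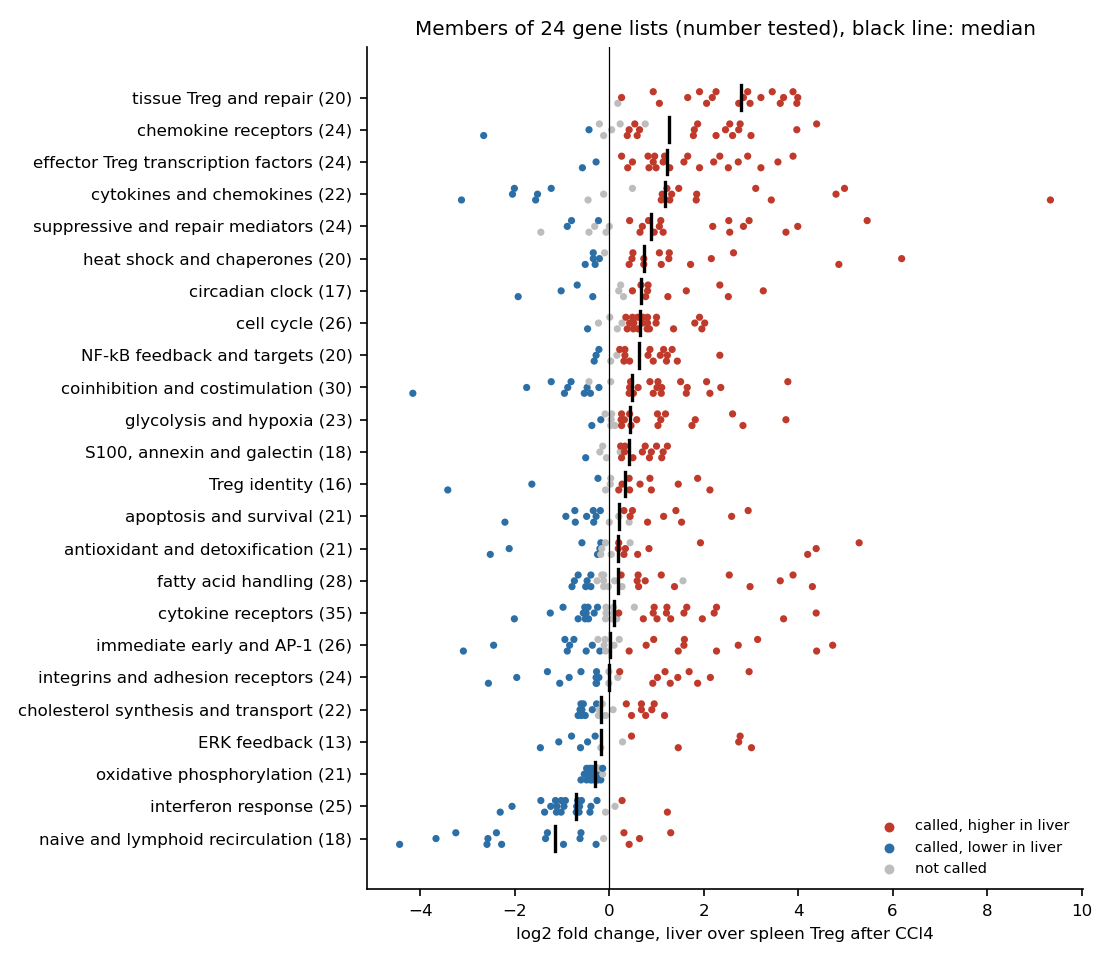
Log2 fold change of liver over spleen Treg after CCl4 (x axis) for the tested members of 24 gene lists (y axis, number tested in brackets), ordered by median, with points for genes and black lines for medians. Tissue Treg and repair has the highest median, 2.79, and naive and lymphoid recirculation the lowest, -1.14.

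Apart from lists, the largest rises among genes of at least 20 CPM whose libraries did not overlap, markers of other cells left out, began with Ednrb, an endothelin receptor gene (log2 fold change 7.07, SE 0.40, adjusted p = 1.04e-08). It had 49.7, 81.7, 141, 52.4 and 74.2 CPM in liver Treg, against 0.211, 1.07, 0.791, 0.502 and 0.637 CPM in spleen Treg. Jcad, a junction protein gene (6.76), and Acod1, the enzyme that makes itaconate (6.52), averaged 24.2 ± 9.02 and 22.2 ± 4.88 CPM in liver Treg and lay under 0.5 CPM in every spleen library. Ramp3, which alters the ligands of calcitonin-type receptors, had 74.7, 117, 116, 122 and 162 CPM in liver, against 2.04, 2.32, 2.45, 1.97 and 2.36 CPM in spleen (5.77, SE 0.19, adjusted p = 9.62e-11). Pcsk1, a protease that matures peptide hormones, averaged 102 ± 59.2 and 2.08 ± 0.851 CPM (5.66). Cyp11a1, the first enzyme of steroid synthesis, had 40.1, 64.2, 61.4, 47.0 and 69.9 CPM in liver, against 1.35, 1.41, 0.993, 1.59 and 2.20 CPM in spleen (5.29). Hspa1a, Hspa1b, Cxcl2 and Cxcl3 complete these 10 and are given above. All 10 were higher in every liver library, as the choice requires.

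The largest falls began with Slc40a1, the iron exporter ferroportin, with 0.0799, 0.355, 0.0913, 0.660 and 1.58 CPM in liver Treg, against 17.1, 25.0, 24.9, 19.1 and 16 CPM in spleen Treg (log2 fold change -5.26, SE 0.53, adjusted p = 2.56e-06). Slc40a1 is abundant in red pulp macrophages, and 9 of 11 tested macrophage markers were called lower in liver Treg with it, none higher (2 in the fit restricted to genes of at least 5 CPM, where fewer are tested). Their summed level ran from 8.49 to 43.9 CPM in liver and from 59.2 to 117 CPM in spleen libraries. C1qa averaged 0.477 ± 0.261 and 5.21 ± 1.45 CPM and C1qb 1.17 ± 0.333 and 9.14 ± 4.34 CPM. Clec4f was at or under 0.0313 CPM in every library. The part of macrophage RNA in Slc40a1 was not tested.

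The other large falls were in genes of varied function. Dtx1, a Notch target and regulator of anergy, had 20.4, 25.1, 21.8, 22.7 and 24.7 CPM in liver Treg, against 350, 320, 363, 335 and 326 CPM in spleen Treg (log2 fold change -3.85, SE 0.07, adjusted p = 7.96e-13). Its 2 groups are each tight and far apart. Gata1, a factor of erythroid and mast cells, averaged 1.97 ± 0.793 and 36.6 ± 5.69 CPM (-4.17), while none of 7 tested erythroid and platelet markers was called, their sum running from 6.38 to 62.3 CPM in liver and from 14.4 to 73.6 CPM in spleen libraries. Nsg2, an endosomal protein gene, averaged 6.44 ± 1.93 and 90.3 ± 11.9 CPM (-3.77). Atp1b1, a subunit of the sodium pump, averaged 2.37 ± 1.16 and 25.6 ± 1.81 CPM (-3.41), the crosslinking enzyme gene Tgm2 3.24 ± 2.90 and 33.1 ± 9.02 CPM (-3.33) and the amino acid transporter gene Slc7a10 2.34 ± 0.971 and 22.7 ± 6.00 CPM (-3.24). Ly6c1, Gpr83 and Igfbp4 complete these 10 and are given above.

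Markers of other cells were counted as well, beside 29.2% of all genes tested called higher and 31.0% called lower. Of 10 hepatocyte markers tested, 8 were called higher in liver Treg and 1 lower. The number called higher was 3 with DESeq2, and 16 with no filter on low counts and 18 in the fit of all 8 groups, where more of the markers are tested. Alb, serum albumin, had 2.45, 12.5, 101, 1.07 and 5.49 CPM in liver libraries, against at most 0.276 CPM in spleen libraries, so library 3 stood apart. The summed markers ran from 281 to 694 CPM in liver and from 156 to 184 CPM in spleen, most of it Trf, transferrin (198 ± 47.5 and 25.1 ± 5.32 CPM), and Ass1 (116 ± 11.4 and 142 ± 7.07 CPM). The urea cycle gene Cps1 had a median of 0 CPM in both groups. Stellate and fibroblast markers had 3 of 6 called higher, Dcn at 11.5 ± 9.88 and 1.28 ± 0.907 CPM, the sum running from 12.4 to 67.2 CPM in liver and from 6.43 to 12 CPM in spleen. Of the endothelial markers 4 of 10 were called higher and 2 lower, with Stab1 at 40.6 ± 11 and 7.23 ± 3.78 CPM and Stab2 lower. Neutrophil and monocyte markers had 6 of 10 lower, S100a8 at 0.125 ± 0.163 and 7.48 ± 5.85 CPM, and 1, Ccr2, higher. Without liver library 3, edgeR called 8185 genes in the main comparison, against 8647 with it. Leaving out any 1 of the libraries gave 8177 to 8556, so this count does not show which calls come from other cells.

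Cholangiocyte markers had 3 of 3 tested called higher, with summed levels of 56.8 to 168 CPM in liver and 38.4 to 55.7 CPM in spleen. Plasma cell markers had 4 of 7 higher. These were Irf4 and Prdm1, which effector Treg use, Xbp1 (log2 fold change 0.43) and Sdc1 (2.65). Sdc1 averaged 4.51 ± 1.23 CPM in liver Treg and 0.739 ± 0.167 CPM in spleen Treg. Jchain, Mzb1 and Derl3 were not called. B cell markers had 3 of 11 lower and none higher, dendritic markers 3 of 8 higher and 1 lower, and NK and innate-like T markers 1 of 9 higher and 4 lower. Over all genes tested, 29.2% were called higher and 31.0% lower. Counts this small are not read as a result about these cells. Neither CD8 T marker was called. Mast cell and pancreas markers each had 1 higher and 1 lower of 2. The part of these cells in the results above was not tested.

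The tissue difference of Treg after CCl4 was then set beside that in control mice, measured in other libraries (3 of liver Treg and 3 of spleen Treg). Over 9886 genes of at least 5 CPM, the 2 sets of log2 fold changes had a Pearson correlation of 0.788, given as a description across genes, which are not independent. Of the 2907 genes called past 2-fold after CCl4, all of which were tested in both fits, 2725 had the same sign in control mice. In the same direction, 1762 were called there. The matching shares over all genes tested are not given, so these counts are a description only. Areg was among those shared, with a tissue log2 fold change of 4.68 in control mice, where it averaged 72.2 ± 22.2 CPM in liver Treg and 2.95 ± 2.42 CPM in spleen Treg. The difference between the 2 tissue effects was not called for Areg (-0.72, adjusted p = 0.404), Il1rl1 (0.24, adjusted p = 0.729), Il10 (-0.29, adjusted p = 0.783), Rora (0.03, adjusted p = 0.952), Ctla4 (-0.18, adjusted p = 0.382) or Foxp3 (0.09, adjusted p = 0.711). All of these values, that of Areg in control mice included, rest in part on spleen controls 2 and 3, whose low Fos is given below. For these genes, values without both controls are not given.

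The difference was called for 988 of 16345 genes (6.04%), 376 (2.3%) higher and 612 (3.74%) lower in the CCl4 tissue effect. Naive and recirculation genes were frequent among them, with 15 of 18 lower and none higher, a median difference of -1.06. Tcf7 differed most clearly. In the fit of both sets it had a tissue log2 fold change of -2.63 after CCl4 and -1.17 in control mice (difference -1.46, SE 0.11, adjusted p = 5.07e-06). Satb1 (-1.73, adjusted p = 6.31e-05) and Bach2 (-1.60, adjusted p = 0.00759) went the same way, as did Lef1 (-0.56), Ccr7 (-1.19), S1pr1 (-0.86) and Klf2 (-0.61). S1pr1 had a tissue log2 fold change of -0.16 after CCl4 and 0.70 in control mice. Gata3 (1.06, adjusted p = 0.00157) and Cxcr6 (1.79, adjusted p = 0.00596) had a larger rise in liver after CCl4. The genes of smallest adjusted p were, with Tcf7 and Satb1, the cytoskeletal regulator Evl (-1.41), the tetraspanin gene Cd9 (-1.25), the tubulin gene Tubb2a (-1.86), the sensor gene Nod1 (-1.73), Gpr83 (-1.55) and Phf13 (-1.29), all lower. The chemokine gene Cxcl3 (2.61, adjusted p = 0.00711), the lipid droplet gene Plin2 (1.78, adjusted p = 8.46e-05) and Fgl2 (1.65, adjusted p = 0.000243), chosen after their values were seen, were on the higher side.

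These counts rest in part on 2 libraries. Spleen Treg controls 2 and 3 had Fos at 25.1 and 22.6 CPM, against 842 CPM in control 1 and 797 to 1115 CPM in the spleen Treg libraries after CCl4. Without both, 311 genes were called, 267 of them among the 988, and a group of 1 spleen control is then assumed to vary like the other groups. Of 18 naive genes, 10 were still lower, with a median difference of -1.21, and Tcf7 (-1.44, adjusted p = 0.00174) and Gata3 (1.26, adjusted p = 0.00697) kept their calls. Klf2 (-0.65, adjusted p = 0.084) and Bach2 (-1.49, adjusted p = 0.127) lost theirs, at differences close to those with all libraries. Interferon genes had 9 of 25 lower with all libraries and 2 of 25 without those controls, with medians of -0.62 and -0.60. Without control 3 alone, 622 genes were called.

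Set beside Tconv of the same treatment (5 liver and 5 spleen libraries), the tissue effects correlated at 0.741 over 9867 genes, again as a description. Of the same 2907 genes, 2645 had the same sign in Tconv and 1783 were called there in the same direction. Here too the matching shares over all genes tested are not given. Areg was again not called for a difference (-0.74, adjusted p = 0.171), with a tissue log2 fold change of 4.72 in Tconv, where it averaged 14.5 ± 3.12 CPM in liver and 0.570 ± 0.373 CPM in spleen.

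The difference between the tissue effects of Treg and Tconv was called for 2531 of 15473 genes (16.4%), 975 (6.3%) higher and 1556 (10.1%) lower in Treg. Pcyt1a, the regulated enzyme of phosphatidylcholine synthesis, had a tissue log2 fold change of 3.92 in Treg (447 ± 96.9 CPM in liver and 29.9 ± 3.85 CPM in spleen) and 0.00 in Tconv (difference 3.92, adjusted p = 1.02e-10). Tent5a, a poly(A) polymerase gene, was similar (difference 3.05, adjusted p = 1.02e-10). Id2 (2.03, adjusted p = 2.5e-08), Gata3 (1.36, adjusted p = 4.53e-07), Cxcr6 (1.37, adjusted p = 0.0167) and Pparg (1.77, adjusted p = 0.027) also rose more between the tissues in Treg, and the call of Pparg was lost without spleen Tconv library 2 (adjusted p = 0.114) or 3 (0.0737). Foxp3 had a positive difference as well (0.90, adjusted p = 0.00138), with Tconv levels of 0.976 CPM in liver and 1.81 CPM in spleen.

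On the lower side, Tcf7 (-1.94, adjusted p = 5.76e-10), Id3 (-2.10, adjusted p = 6.75e-09) and Bach2 (-1.96, adjusted p = 1.81e-05) were lower in liver by a larger fold in Treg than in Tconv. The same held for Dtx1 (-2.12), Lta (-2.71), Cd96 (-1.71), Evl (-2.25) and Nod1 (-2.46), and S1pr1 (-1.11) and Klf2 (-1.12) were higher in liver than spleen Tconv but not, or less so, in Treg. Ctla4 had the opposite kind of difference (-1.50, adjusted p = 5.28e-07). It was higher in liver in both cell types, by 2.12 in Treg and by 3.62 in Tconv. Ccr8 (-1.07, adjusted p = 0.0181), Cxcr3 (-0.86, adjusted p = 0.0126) and Batf (-0.47, adjusted p = 0.0201) likewise had a larger tissue effect in Tconv.

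**Figure D5:**
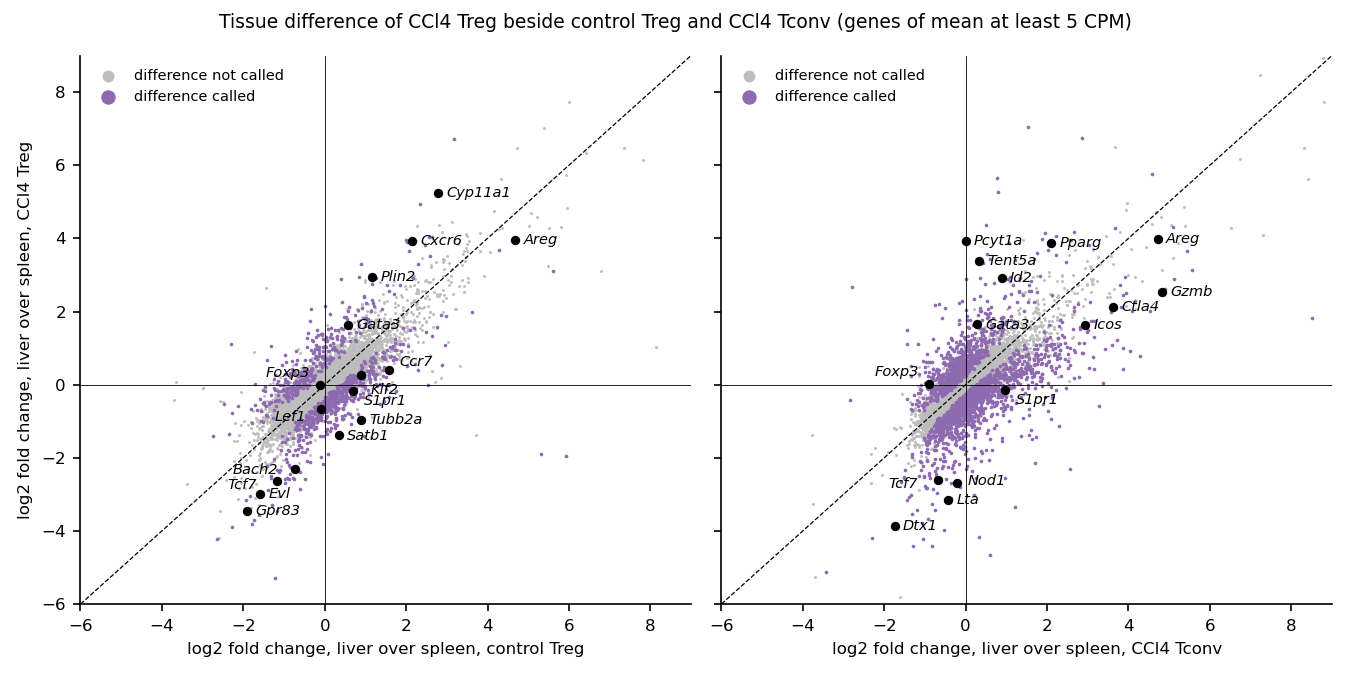
Log2 fold change of liver over spleen in CCl4 Treg (y axis) against that in control Treg (x axis, left) and in CCl4 Tconv (x axis, right), with genes of a mean of at least 5 CPM as points, those with a called difference in purple and the line of equality dashed. Areg lies near the line in both panels, Tcf7 below it in both, and Pcyt1a and Tent5a above it on the right only.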

How the data were processed

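RNA of sorted Treg was sequenced in the 10 libraries compared here. Per the file headers, each library's file lists transcripts with an estimated count, as kallisto gives it, and TPM, a value the authors' software scaled by transcript length and library. The submitters' processing notes name bcl2fastq 2.19, kallisto 0.44.0, DESeq2 and the build GRCm38.p6. Neither release of the annotation nor strandedness of counting is given in the sources used here. The deposited estimated counts were summed per gene through the transcript names of GENCODE M21, which matched 98.588% of 118489 transcripts, and rounded. Transcripts without a match held 0.6757 to 0.7899% of the counts. Depth ran from 24513124 to 35560327 estimated counts in liver Treg libraries and from 31168044 to 62485064 in spleen Treg libraries.

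The 10 libraries were fitted with edgeR's quasi-likelihood test (edgeR 4.0.16, limma 3.58.1, R 4.3.3; trimmed mean of M values, edgeR's default filter on low counts), with Benjamini-Hochberg adjustment over all genes tested and calls at an adjusted p under 0.05. Every adjusted p of a gene comes from that test. Standard errors are log2 fold changes over the root of the F statistic. Differences of tissue effects come from interaction terms in fits of 16 and 20 libraries. Transcript shares, of transcripts with at least 10% of their gene, were compared with a two-sided exact permutation test. Alternatives included DESeq2 1.42.0, limma-voom, other filters and scalings, and leaving out each library. Figures were drawn with matplotlib 3.10.9 under Python 3.11.15.

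The members and gene lists were chosen with earlier results of these data known. Genes were named by a rule. It took the 10 largest rises and falls among called genes of at least 20 CPM without overlap, leaving out predicted genes and markers of other cells. It added 24 panel genes, up to 3 called members of each list in each direction, and for each difference the 8 genes of smallest adjusted p and the panel genes called. Genes that the text names to complete a count of 5 or fewer, and Fos, Cd4, Cd3e, Cd8a, Cd8b1, Cps1 and Clec4f, were named besides. So were Bcl2l1, Birc3, Tnfrsf10b, Fas, Bid, Casp8 and Hsp90b1, to show the other side of a list. A few genes that the rule takes are not reported here.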

Additional observations from a re-analysis of the deposited data

Results flagged for a closer look

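Among 278 combinations of a named gene and a tissue, 21 had 1 library far from the other 4 (Dixon's test at the 95% level), and chance gives about 1 in 20 groups. Of these, 5 lay in spleen library 4, where Klf2 stood below the others at 274 CPM and Penk (143 CPM), Icos (545 CPM), Egr2 (44.2 CPM) and Bhlhe40 (209 CPM) above them. In liver library 1, Il5 stood below the others at 3.67 CPM and Hsp90aa1 above them at 1183 CPM. Liver library 2 was high for Fasn (127 CPM), Cyc1 (137 CPM) and Stab2 (0.148 CPM) and low for Myb (7.89 CPM). Liver library 3 was high for Alb (101 CPM) and Nrp1 (384 CPM). Liver library 4 was high for Nr4a2 (359 CPM) and Lgals9 (240 CPM) and low for Slc7a10 (0.66 CPM). In spleen libraries, Il5 was high (0.125 CPM) and Havcr2 low (2.13 CPM) in library 2, C1qa (7.69 CPM) and S1pr4 (90.4 CPM) were high in library 3, and Dcn (2.87 CPM) was high in library 1.

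The tissue effect differed between CCl4 and control Treg by edgeR's interaction test at 988 genes. Named genes with a negative difference on the log2 scale were Gpr83 (-1.55), Tcf7 (-1.46), Lef1 (-0.56), Ccr7 (-1.19), S1pr1 (-0.86), Klf2 (-0.61), Bach2 (-1.60), Evl (-1.41), Cd9 (-1.25), Tubb2a (-1.86), Nod1 (-1.73), Phf13 (-1.29) and Satb1 (-1.73). Gata3 (1.06) and Cxcr6 (1.79) had positive differences. Spleen Treg controls 2 and 3 enter all of these.

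The tissue effect differed between Treg and Tconv after CCl4 at 2531 genes. The difference was negative for Dtx1 (-2.12), Ctla4 (-1.50), Ccr8 (-1.07), Cxcr3 (-0.86), Batf (-0.47), Id3 (-2.10), Tcf7 (-1.94), S1pr1 (-1.11), Klf2 (-1.12), Bach2 (-1.96), Lta (-2.71), Cd96 (-1.71), Evl (-2.25) and Nod1 (-2.46). It was positive for Foxp3 (0.90), Gata3 (1.36), Pparg (1.77), Cxcr6 (1.37), Id2 (2.03), Pcyt1a (3.92) and Tent5a (3.05).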

How the results depend on the processing

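The 8647 calls between liver and spleen Treg ranged from 6312 (genes of at least 5 CPM) to 9240 (fit of all 8 groups) over the other settings, and from 8177 to 8556 with 1 library left out. Of 139 named genes, 128 kept direction and call under every alternative. Foxp3, at 0.02, was -0.042 with no filter on low counts, -0.016 in the fit of all 8 groups, -0.119 with length-scaled counts, and 0.143 and called (adjusted p = 0.0387) among genes of at least 5 CPM. It ranged from -0.02 to 0.058 with 1 library left out. Calls were lost for Cxcr3, Batf, Ccr7, Nrp1, Phf13, Relb, Tgfb1, Ccne1, Ass1 and Gbp3 under at least 1 setting. With no filter the median of all genes moved to 0.107. Of the list counts, hepatocyte markers called higher numbered 8, against 16 with no filter, 18 in the fit of all 8 groups and 3 with DESeq2, and cytokines called higher 13, against 7 among genes of at least 5 CPM, where fewer genes are tested.

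The 988 differences from control Treg became 1660 with DESeq2 and 311 without spleen controls 2 and 3, and ranged from 622 (without spleen Treg control 3) to 1017 with 1 library left out. The 2531 differences from Tconv ranged from 2234 to 2663 with 1 library left out. With no filter, 619 were higher and 1724 lower, a share of 26.4% higher against 38.5%. The cause of these shifts was not tested. Calls were lost under at least 1 setting for Lef1, Klf2 and Bach2 in the first difference and for Foxp3, Batf, Pparg, Ccr8 and Cxcr6 in the second. Called transcripts numbered 8, 10 with shares from TPM, and 0 to 10 with 1 library left out. The uncalled differences in share of Foxp3-206 (-1.095 points) and Ikzf2-203 (0.117 points) turned to 0.072 and -0.579 points with TPM, and ranged from -3.084 to 1.245 and from -0.267 to 0.616 points with 1 library left out.

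The labels do not say whether replicate numbers pair liver and spleen samples, and the values below cannot decide it. The correlations of same-numbered deviations over 9903 genes were 0.00425, 0.125, 0.0946, 0.168 and -0.0842, within the range of all pairs, -0.214 to 0.18, and not every sample correlated best with its own number. With the replicate number as a block, 8377, 929 and 2686 genes were called in the 3 comparisons. Precision at low counts limits genes under about 1 CPM, such as Il5 in spleen.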
